A study of Mus musculus with 2 samples.

Results

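10 genes of the ATF4 stress response and of serine synthesis were followed in single cells of EMT6 tumors treated with Olaparib and LLY-283, with or without anti-PD-1. The genes were taken by their symbols among the 55450 genes of the deposited count matrices, and all 10 were present: Atf4, Ddit3, Trib3, Chac1, Asns, Phgdh, Psat1, Shmt2, Slc7a11 and Hspa5. Each BALB/c mouse carried a subcutaneous tumor grown from 200000 EMT6 cells, a mammary carcinoma line of that strain. The authors' paper gives the mice as female and aged 5 to 6 weeks when purchased. LLY-283, an inhibitor of the arginine methyltransferase PRMT5, was dosed at 50 mg/kg on a cycle of 3 days on and 4 off, and Olaparib, a PARP inhibitor, at 50 mg/kg. These agents define the Olaparib + LLY-283 group, whose library is called the dual library here, and were also given to the Combo group, which received 200 µg of anti-PD-1 antibody every 3 days in addition. Tumors of 3 mice were pooled into 1 library per group, so effects of treatment, mouse pool and library cannot be told apart, and no untreated library was analysed here. Every interval below is a 95% interval that covers counting error only.

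ATF4 is the transcription factor of the integrated stress response: kinases that sense amino acid shortage, unfolded protein or other stress phosphorylate eIF2, general translation falls, and the Atf4 mRNA is translated more. ATF4 then switches on genes for amino acid synthesis, amino acid transport and tRNA charging, and, when stress persists, Ddit3 (CHOP), a transcription factor linked to cell death. Trib3, a pseudokinase, and Chac1, an enzyme that degrades glutathione, are targets of ATF4 and CHOP. Phgdh and Psat1 catalyze successive steps of serine synthesis, Shmt2 passes the serine carbon to folate in mitochondria, and Asns makes asparagine. Slc7a11 is the cystine carrier of the xCT exchanger, and Hspa5 (BiP) is the main chaperone of the endoplasmic reticulum and a reporter of the unfolded protein response.

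The dual library held 16115 cells and Combo 7542, at medians of 7376 and 3613.5 UMIs (unique molecular identifiers, 1 per captured transcript) per cell. After removal of cells with fewer than 200 genes or with 20% or more mitochondrial UMIs, 16029 and 5956 remained, and the 2 libraries shared 39 barcodes. Cells were then classed by the UMIs of marker genes, none of them a gene of this set. Tumor-like cells, taken by UMIs of Epcam, Krt7, Krt8, Krt18 and Krt19, numbered 11188 and 2880, with medians of 9572 and 46912 UMIs. Because of this difference, tumor-like cells were compared after a random draw of 5000 UMIs from each, which kept 9549 and 2722 cells. Other classes were macrophage-like (609 and 421 cells), neutrophil-like (661 and 1210), cancer-associated fibroblast (CAF)-like (175 and 52), T or NK-like (57 and 40) and osteoclast-like (39 and 22), and 2931 and 1034 cells passed no cut. Free RNA in the droplets was not removed from any value. Keratin markers made up a median of 0.0825% and 0.0746% of the UMIs of the tumor-like cells compared.

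Sequences are given for the 4 genes whose promoter windows held a binding element of this pathway. The C/EBP-ATF response element (CARE), to which ATF4 binds with a C/EBP partner, was searched as TGATGNAA, and the endoplasmic reticulum stress element (ERSE) of the unfolded protein response as CCAAT and CCACG 9 bases apart, on both strands and within the 250 bases before the RefSeq start (build GRCm38.p6). Capitals mark the element, and each sequence reads 5′ to 3′ on the strand of its gene.
Slc7a11, chr3:50443615-50443863, minus strand: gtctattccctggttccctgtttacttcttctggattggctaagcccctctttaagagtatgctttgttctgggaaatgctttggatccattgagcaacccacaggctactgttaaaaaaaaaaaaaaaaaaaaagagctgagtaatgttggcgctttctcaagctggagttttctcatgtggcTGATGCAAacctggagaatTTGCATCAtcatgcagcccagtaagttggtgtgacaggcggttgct
Chac1, chr2:119350992-119351228, plus strand: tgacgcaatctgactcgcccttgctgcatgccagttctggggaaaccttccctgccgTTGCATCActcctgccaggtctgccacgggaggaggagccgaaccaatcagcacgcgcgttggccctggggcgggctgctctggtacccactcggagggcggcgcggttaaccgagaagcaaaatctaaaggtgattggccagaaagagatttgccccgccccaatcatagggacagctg
Asns, chr6:7693214-7693243, minus strand: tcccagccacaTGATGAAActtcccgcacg
Hspa5, chr2:34772020-34772049, plus strand: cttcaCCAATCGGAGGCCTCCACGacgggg
Slc7a11 carried 2 CARE matches in opposite orientation, which began 66 and 47 bases before its start. The Chac1 match lay 193 bases before the start on the other strand, and the Asns match 23 bases before it. For Asns and Hspa5 only 30 bases are shown, because exons of the GENCODE M21 annotation reach over the element there. CARE matches were found in 3 of 11 windows of the 10 genes (Psat1 had 2) and in 3.45% of all 32851 promoter windows, and the ERSE in 1 of 11 and in 0.113%. Of 3 other patterns searched, TGATGCAA, a form of the CARE, was in 0.791% of windows and in those of Chac1 and Slc7a11. The pattern TGCAATC was in 1.73% of windows and in those of Psat1 and Trib3, and TGACNNNGC, the core of the antioxidant element, was in 10.2% and in those of Asns and Phgdh. A match is a description of the letters and not a bound site. All 10 are annotated as protein-coding genes in mm10, and reads were counted per gene. Phgdh lies at chr3:98313170-98339990 and Slc7a11 at chr3:49892526-50443614, both on the minus strand. Psat1 lies at chr19:15904678-15947337 (minus), Asns at chr6:7675169-7693254 (minus) and Shmt2 at chr10:127517123-127522444 (minus). Ddit3 lies at chr10:127290774-127296288 (plus), Trib3 at chr2:152337422-152344032 (minus), Chac1 at chr2:119351229-119354381 (plus) and Hspa5 at chr2:34771970-34777547 (plus).

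In tumor-like cells at 5000 UMIs, the 10 genes were within 1.30-fold of each other between the libraries with and without anti-PD-1. Hspa5 was at 828 CPM (UMIs per 1000000 UMIs) [820–836] in the dual library and 824 [809–840] in Combo, and 95.2% and 93.4% of cells had a UMI. Atf4, on chromosome 15 (80255184 to 80257541, mm10, plus strand), was at 263 CPM [259–268] and 237 [229–246]. Ddit3, on chromosome 10, was at 54.9 CPM [52.8–57.1] and 56.4 [52.4–60.5], counted under its longer gene entry only. The short entry of the same symbol lies within the longer one and had 0 UMIs in both libraries. The intervals of Hspa5 and Ddit3 overlapped between the libraries, and those of Atf4, lower in Combo, did not.

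Trib3 was at 15.4 CPM [14.3–16.5] and 14.2 [12.3–16.3], and Chac1 at 15.9 CPM [14.8–17.1] and 20.6 [18.3–23.2]. Among the enzymes, Phgdh was at 151 CPM [147–154] and 165 [158–172], Psat1 at 110 CPM [108–113] and 118 [113–124], and Asns at 102 CPM [98.8–105] and 102 [97–108]. Shmt2 was at 56.7 CPM [54.6–58.9] and 55.8 [51.9–59.9], and Slc7a11 at 10.2 CPM [9.35–11.2] and 10.1 [8.52–12]. Levels of different genes are not ranked against each other beyond this, since capture differs between transcripts.

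Between the libraries, 0 of 10 genes passed a 1.5-fold difference in either direction, where 5.8% of 12472 genes tested were over 1.5-fold higher in Combo and 2.74% lower. The median log2 ratio of Combo over Olaparib + LLY-283 was 0.0019 over the 10 genes and 0.047 over all genes tested. Chac1 had the largest ratio, 1.30-fold (log2 0.38 [0.17, 0.58]), followed by Phgdh at 1.09-fold (0.12 [0.056, 0.19]) and Psat1 at 1.07-fold (0.10 [0.019, 0.18]). Atf4 had the lowest, with a log2 ratio of −0.15 [−0.21, −0.093]. The intervals of these 4 genes left out 0, and those of the other 6 held it. With 1 library per group, the spread between tumors was not measured, so these intervals do not say whether the groups differ.

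The result depended on the depth of the cells taken. Restricted to cells of 5000 to 20000 UMIs, 8237 in the dual library and only 265 in Combo, 3 genes passed 1.5-fold: Trib3 (log2 −1.003) and Chac1 (−0.82) were lower and Slc7a11 (1.35) higher in Combo. All 3 were at 20.6 CPM or less in the comparison above, and their counting error in the 265 cells is not given here. In deep cells thinned to 20000 UMIs (1312 and 2457 cells), none passed, but Ddit3 was 1.27-fold higher in Combo (log2 0.35 [0.25, 0.45]) and Hspa5 1.15-fold higher (0.21 [0.18, 0.23]). Phgdh (log2 −0.074) and Psat1 (−0.19) were then lower in Combo, the other way than at 5000 UMIs. Chac1 was still higher in Combo at 20000 UMIs, at 1.21-fold (log2 0.27 [0.11, 0.44]). Its log2 ratio was 0.068 when cells were thinned to 2000 UMIs.

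**Figure D1:**
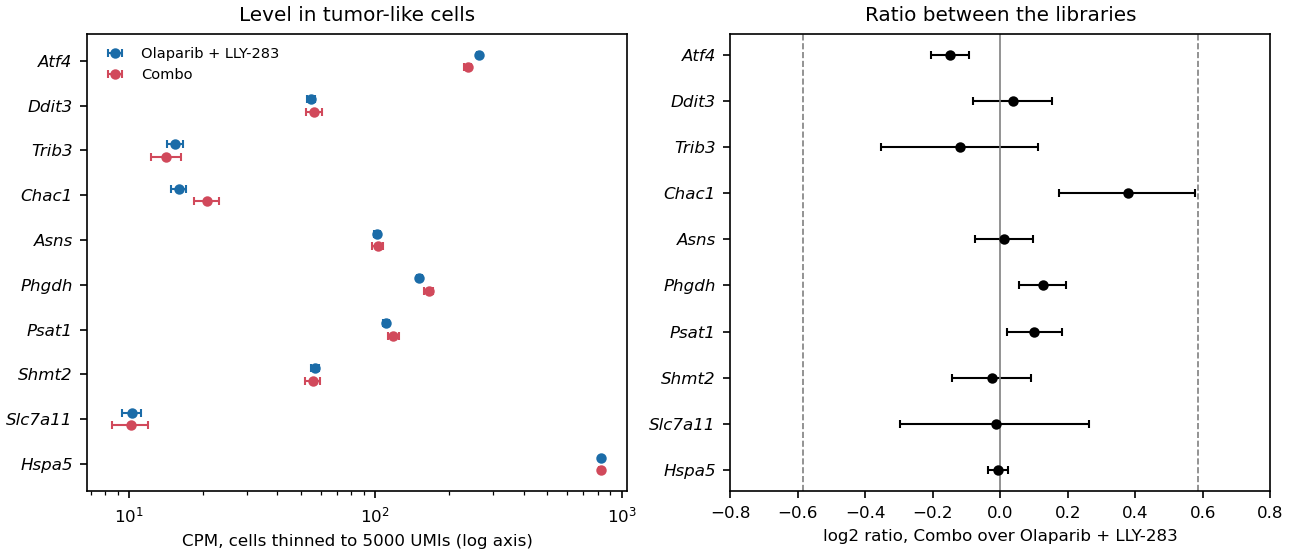
Left, level of each gene in tumor-like cells in CPM on a log axis, with exact Poisson 95% intervals, in the dual (Olaparib + LLY-283) and Combo libraries. Right, log2 ratio of Combo over Olaparib + LLY-283 with its exact interval, where dashed lines mark 1.5-fold; all 10 points lie between −0.15 and 0.38.

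No gene of the other lists passed 1.5-fold between the libraries in tumor-like cells, where 5.8% of all genes were higher in Combo and 2.74% lower. Of 22 other ATF4 target genes tested of 26 listed, 0 passed 1.5-fold, with log2 ratios from −0.57 for Gpt2, an alanine aminotransferase, to 0.51 for Ddit4, an inhibitor of mTORC1. The counts were also 0 for the 12 aminoacyl-tRNA synthetases, the 13 eIF2 kinases and eIF2 factors, the 20 ER chaperone and unfolded protein response genes and 13 of 14 folate and one-carbon genes that were tested. They were 0 as well for the NRF2 target, hypoxia, S phase, G2 and M phase and immediate early genes, so a count of 0 was not particular to the ATF4 pathway. Summed over its list, the other ATF4 targets were at 2149 CPM in the dual library and 2001 in Combo, the synthetases at 1643 and 1616, and the ER chaperones at 4655 and 4769. Tumor-like cells of the libraries also differed in their summed immediate early genes (4890 and 4054 CPM), G2 and M phase genes (1236 and 1104 CPM), hypoxia genes (1820 and 1989 CPM) and median share of neutrophil marker UMIs (0.0093% and 0.0192%). The part of these in the ratios above was not tested.

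Among tumor-like cells of the same library, the 10 genes fell into groups that varied together to different degrees. Asns, Phgdh, Psat1 and Shmt2 formed the group with the highest median correlation, Atf4, Ddit3, Trib3 and Chac1 another, and Hspa5 and Slc7a11 had rho of at most 0.22 with any other gene of the set. This grouping was chosen after the values were seen. Correlations are Spearman's rho over the cells of 1 library, in which all points share the library and its free RNA, and they are a description with no test.

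At 5000 UMIs per cell the counts were sparse and the correlations weak, with medians over the 45 pairs of 0.033 in the dual library (9549 cells) and 0.061 in Combo (2722 cells). A draw of 20000 UMIs kept 1312 of the 11188 tumor-like cells of the dual library and 2457 of the 2880 of Combo. The deeper cells were thus a small part of the class in the dual library and most of it in Combo. Cells called as doublets by Scrublet were not removed. In the deeper cells thinned to 20000 UMIs, the median was 0.10 and 0.14. Within the 4 enzymes, the median of 6 pairs was then 0.23 (0.19 to 0.24) and 0.38 (0.32 to 0.42). Phgdh with Psat1, the consecutive enzymes of serine synthesis, had a rho of 0.20 and 0.42. Asns with Psat1 had 0.24 and 0.41 and Asns with Shmt2 0.23 and 0.32.

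Within the stress genes the median of 6 pairs was 0.18 (0.13 to 0.20) in the dual library and 0.26 (0.21 to 0.30) in Combo. Atf4 with Ddit3 had a rho of 0.20 and 0.29, and Atf4 with Chac1 0.18 and 0.30. Between the enzymes and the stress genes, the median of 16 pairs was 0.084 and 0.12, and Ddit3 with Phgdh was below 0 in both libraries (−0.066 and −0.091). Phgdh also had a rho near 0 with Atf4 (−0.019 and 0.0059), whereas Asns had 0.12 and 0.20 and Trib3 with Asns 0.16 and 0.24. In Combo, cells with more UMIs before thinning had more of Phgdh (rho 0.32) and Psat1 (0.36). With this total taken out, the enzyme median was 0.23 in the dual library and 0.33 in Combo, and the stress median 0.18 and 0.25.

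**Figure D2:**
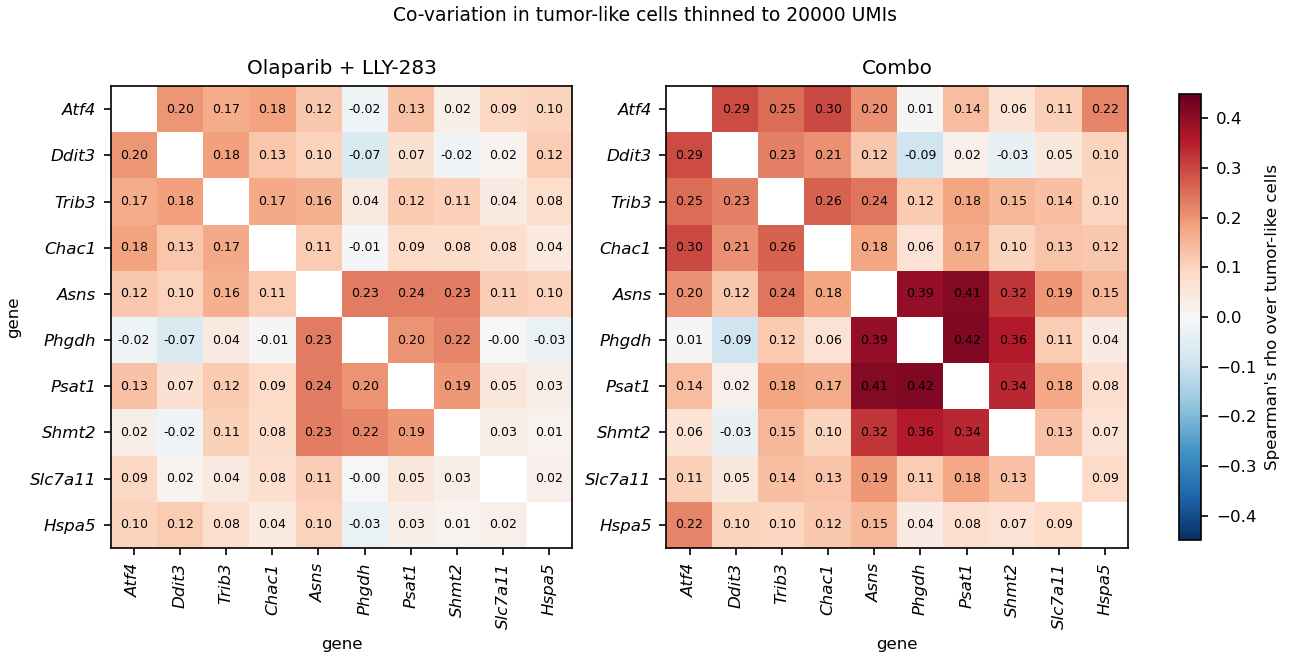
Spearman's rho for each pair of genes over tumor-like cells thinned to 20000 UMIs, 1312 cells of the dual library (left) and 2457 of Combo (right). Pairs among the 4 enzymes from Asns to Shmt2 lie at 0.19 to 0.24 and 0.32 to 0.42, and pairs among the 4 stress genes at 0.13 to 0.20 and 0.21 to 0.30.

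Tumor-like cells with a UMI of a stress gene were also set beside cells without it, at 5000 UMIs. These comparisons share cells with the correlations above and are a description, not independent of them. In cells with a Ddit3 UMI (2038 and 578 cells), Trib3 was 2.01-fold [1.72–2.34] and 2.31-fold [1.70–3.11] higher and Chac1 1.53-fold [1.31–1.80] and 2.42-fold [1.89–3.09] higher. These were 2 of 9 genes past 1.5-fold in each library, where 1.57% and 3.41% of all genes tested were higher. Phgdh was lower in the same cells, at 0.93-fold [0.88–0.98] and 0.86-fold [0.77–0.96], and Shmt2 was at 0.95-fold [0.87–1.05] and 0.94-fold [0.79–1.13].

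Cells with a Trib3 UMI had more of the stress genes and also of Asns and Psat1. In these cells (668 and 167 cells), 2 of 9 genes were past 1.5-fold in the dual library and 5 of 9 in Combo, where 3.66% and 8.88% of all genes tested were. Ddit3 was 1.87-fold and 2.03-fold higher, Chac1 2.40-fold and 2.25-fold, Asns 1.43-fold and 1.87-fold and Psat1 1.32-fold and 1.57-fold, and all of these intervals lay above 1. Phgdh was at 1.06-fold [0.97–1.16] in the dual library and 1.34-fold [1.14–1.56] in Combo. Of the other ATF4 target genes, 8 of 22 were past 1.5-fold in the dual library and 13 of 22 in Combo, and of the aminoacyl-tRNA synthetases 1 of 12 and 7 of 12. These counts were lower for the other stress genes, but so was the share of all genes over 1.5-fold higher. The numbers of cells with a UMI also differed, but little between Trib3 and Chac1 in the dual library (668 and 664 cells). The share of all genes was also close for that pair (3.66% and 3.45%), while other ATF4 targets were 8 and 3. No interval was computed for these counts, so Trib3 is not ranked above the other stress genes. Other ATF4 targets past 1.5-fold were 3 and 7 for Ddit3, 3 and 8 for Chac1, and 1 and 6 for Atf4. Synthetases were 0 and 0 for Ddit3, 0 and 2 for Chac1, and 0 and 0 for Atf4. Cells with a Chac1 UMI (664 and 222 cells) had Trib3 2.33-fold and 2.76-fold higher, and 1 of 9 and 5 of 9 genes past 1.5-fold (3.45% and 5.75% of all genes). Cells with an Atf4 UMI (6672 and 1715 cells) had Ddit3, Trib3 and Chac1 past 1.5-fold in both libraries (3 of 9, with 1.05% and 3.42% of all genes), whereas Phgdh was at 0.97-fold [0.93–1.02] and 1.00-fold [0.91–1.09]. No gene of the set was over 1.5-fold lower in any of these comparisons, for which the share of all genes over 1.5-fold lower was 1.64% and 2.35% for Ddit3 (dual library and Combo), 4.46% and 7.08% for Trib3, 5.6% and 6.74% for Chac1, and 0.759% and 0.921% for Atf4. In Combo, cells with a Trib3 or Chac1 UMI also had more UMIs before thinning (medians of 54217 against 48291 and 55433.5 against 48076), and the part of this was not tested.

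**Figure D3:**
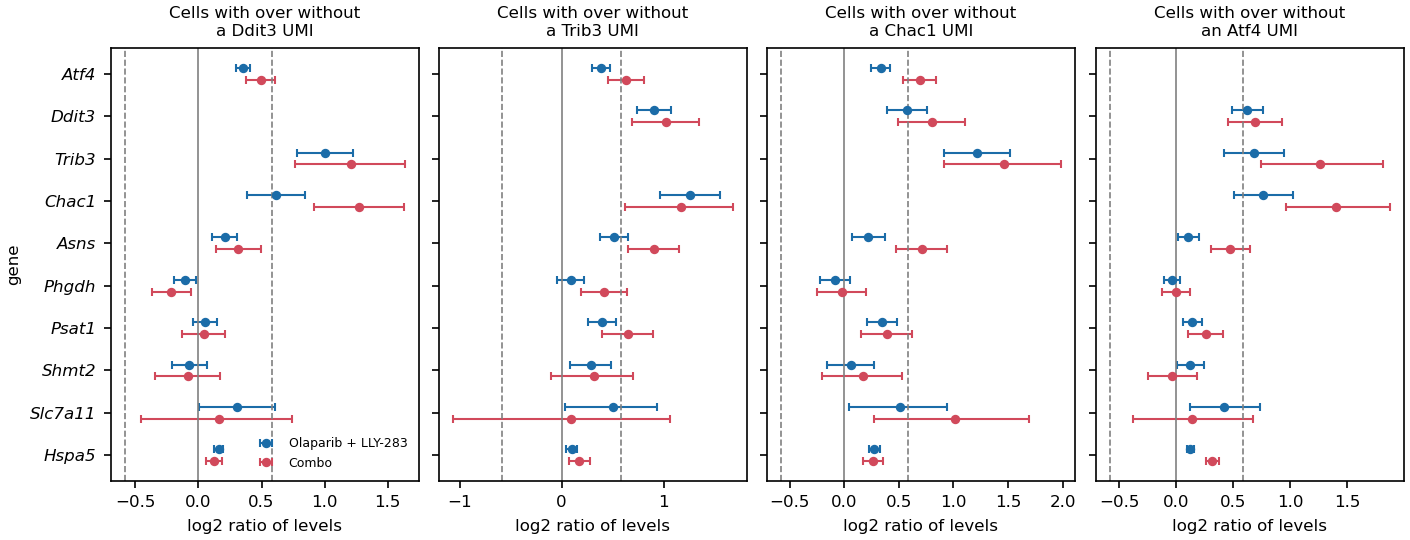
log2 ratio of each gene's level in tumor-like cells with a UMI of Ddit3, Trib3, Chac1 or Atf4 over cells without, at 5000 UMIs per cell, with exact 95% intervals; dashed lines mark 1.5-fold. Trib3 and Chac1 lie furthest right with Ddit3 UMIs, at 2.01-fold and 1.53-fold in the dual library, while Phgdh lies left of 0.

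Set against whole gene lists at 20000 UMIs, the 4 stress genes and Asns had higher correlations with the other ATF4 targets than the rest of the set. Phgdh had the lowest. The 4 enzymes had higher correlations with one-carbon genes than the stress genes had. The lists of other ATF4 targets and of one-carbon genes share Mthfd2, Aldh1l2 and Psph. Atf4 had a rho of 0.32 and 0.45 with the sum of the other ATF4 targets, Ddit3 0.28 and 0.37, and Asns 0.30 and 0.41. Psat1 had 0.18 and 0.25, Shmt2 0.14 and 0.16, and Phgdh 0.037 and 0.073. With the folate and one-carbon genes, rho was 0.30 and 0.48 for Phgdh, 0.25 and 0.48 for Psat1 and −0.049 and −0.056 for Ddit3. Asns had the highest rho of the set with the aminoacyl-tRNA synthetases (0.41 and 0.58). Hspa5 stood apart, with 0.48 and 0.59 with the other ER chaperones, against −0.076 to 0.16 for the other 9 genes over both libraries.

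With hypoxia genes, rho was below 0 for all 4 enzymes and above 0 for all 4 stress genes in both libraries. Phgdh had a rho of −0.30 and −0.39 with the summed hypoxia genes and Shmt2 −0.15 and −0.23, while Ddit3 had 0.20 and 0.29 and Atf4 0.16 and 0.20. With S phase genes, Phgdh had 0.19 and 0.33 and Ddit3 −0.12 and −0.14. With immediate early genes, Atf4 had 0.17 and 0.30, Ddit3 0.090 and 0.26, Trib3 0.021 and 0.035 and Chac1 0.011 and 0.045. At 5000 UMIs the same signs were seen for Phgdh with hypoxia genes (−0.22 and −0.24) and Ddit3 with hypoxia genes (0.15 and 0.17).

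**Figure D4:**
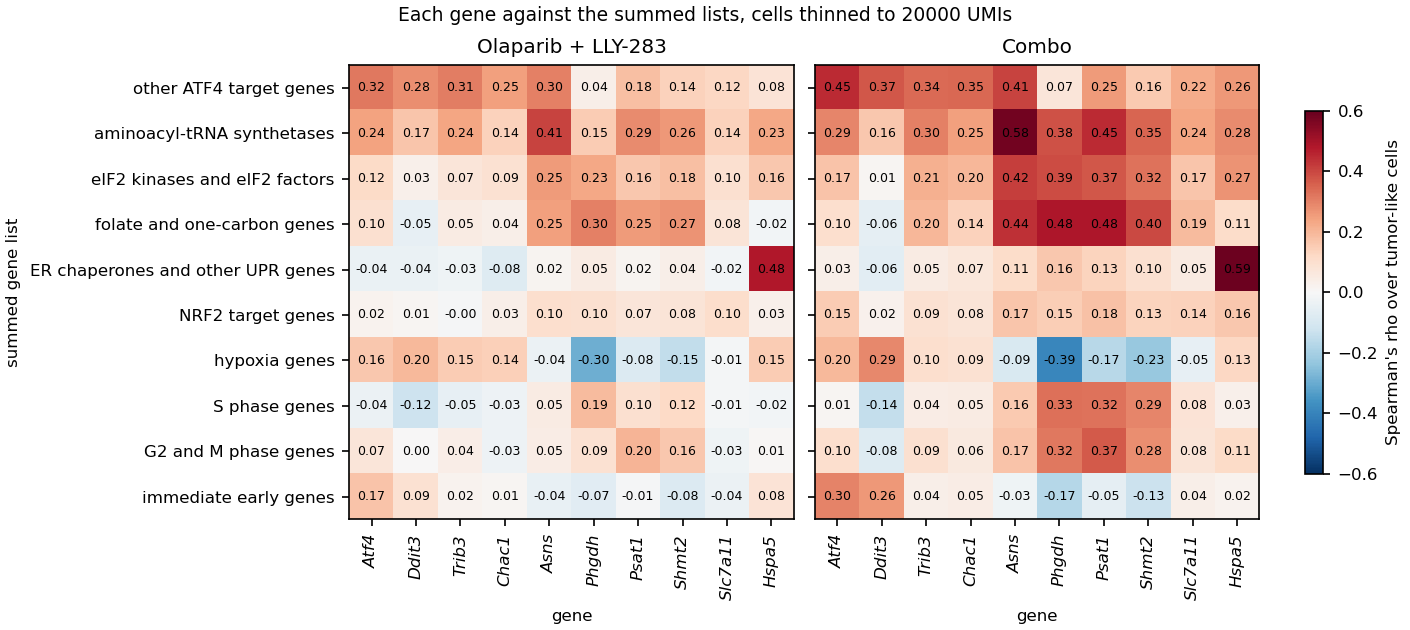
Spearman's rho of each gene with the summed UMIs of 10 gene lists over tumor-like cells thinned to 20000 UMIs, in the dual library (left) and Combo (right). Phgdh with hypoxia genes is the lowest value, −0.30 and −0.39, and Hspa5 with ER chaperones the highest, 0.48 and 0.59.

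The genes whose pattern was most like that of the set over tumor-like cells were taken as the 5 with the highest lower-of-2 Pearson r, among 5395 genes, with the summed UMIs of the 10 genes. They were Hsp90b1 (r of 0.22 and 0.29), Hsp90aa1 (0.22 and 0.31), Hspa9 (0.18 and 0.20), Nars (0.18 and 0.27) and Eif2s2 (0.18 and 0.27). The first 3 encode chaperones, Nars charges the asparagine tRNA, and Eif2s2 is a subunit of eIF2. Hspa5 supplied most UMIs of that sum. Without it, a choice made after the first result was seen, they were Mthfd2 (0.22 and 0.28), Ran, Psph, Nars and Eif2s2, and the median over all genes compared was 0.00021. Mthfd2 is a mitochondrial folate enzyme, and Psph completes serine synthesis after Psat1.

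Across cell classes, thinned to 1000 UMIs per cell, the 4 enzymes were highest in tumor-like cells and Slc7a11 and Ddit3 in neutrophil-like cells. Among the tumor-like, macrophage-like, neutrophil-like and CAF-like classes, 7 of 10 genes in the dual library and 6 of 10 in Combo were highest in tumor-like cells. Over all UMIs of all cells of these classes, a comparison added after values were seen, the counts were 5 and 7. The share of all genes highest in tumor-like cells was not computed, so these counts are not read as particular to the set. Asns, Chac1, Phgdh, Psat1 and Shmt2 were highest in tumor-like cells in both libraries on both scales, while Atf4 and Trib3 changed place between scales or libraries. The T or NK-like and osteoclast-like classes had at most 39 cells at 1000 UMIs, where 3 UMIs came to 76.9 to 143 CPM, and were left out of this order. Only 86 neutrophil-like cells of the dual library reached 1000 UMIs. Scrublet called 39 of these 86 as doublets, and they were kept in the class levels below.

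Phgdh was at 144 CPM [137–151] in tumor-like cells of the dual library and 180 [165–197] in those of Combo. Macrophage-like cells had it at 42.8 [27.2–64.3] and 19.5 [8.4–38.4], and in neutrophil-like cells at 58.1 [18.9–136] and 44 [32.6–58.2]. Asns was at 96.3 and 110 CPM in the tumor-like, 18.6 and 14.6 in the macrophage-like, and 34.9 and 44 in neutrophil-like cells. The intervals of both genes in macrophage-like and neutrophil-like cells overlapped in the dual library, while in Combo those of Asns (5.36–31.8 and 32.6–58.2) did not and those of Phgdh (8.4–38.4 and 32.6–58.2) did.

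In macrophage-like over tumor-like cells, 7 of 10 genes in the dual library and 6 of 8 tested in Combo were over 1.5-fold lower. The share of all genes lower was 33.7% and 35.3%. Among the lower genes, Chac1 had 3 UMIs in macrophage-like cells of the dual library and 1 in those of Combo. Over all UMIs, Atf4 and Trib3 were not over 1.5-fold lower in the dual library, but both were in Combo. In the thinned comparison 1 gene (Slc7a11) was higher in the dual library and 0 in Combo, where 22.6% and 21.5% of all genes were. Slc7a11 had too few UMIs to be tested in Combo, where it was at 24.3 CPM in macrophage-like and 11.7 in tumor-like cells. In neutrophil-like over tumor-like cells, 6 of 10 genes counted as lower in the dual library, where 28.6% of all genes did, but 4 of these 6 (Asns, Chac1, Shmt2 and Trib3) had at most 3 UMIs in the 86 neutrophil-like cells. In Combo 5 of 9 tested were lower, close to the 60.5% of all genes there. In CAF-like cells (169 and 45 cells), 7 of 10 and 6 of 8 counted as lower and none as higher, where 29.9% and 34.5% of all genes were lower, but 3 of the 7 and 5 of the 6 rested on at most 3 CAF-like UMIs. Genes that passed the filter through the tumor-like class alone had to come out lower, so these counts carry no weight by themselves. Over all UMIs, and among genes with more than 3, Asns, Phgdh and Psat1 were over 1.5-fold lower in macrophage-like, neutrophil-like and CAF-like cells of both libraries. Shmt2 was so in macrophage-like and neutrophil-like cells of both, and in CAF-like cells of the dual library, but was at 57.7 CPM [44.2–73.9] in CAF-like cells of Combo against 67.7 in tumor-like cells. The share of all genes lower over all UMIs was not computed, so this result is not read as particular to the enzymes. In the thinned comparison of neutrophil-like over tumor-like cells of Combo, the median log2 ratio over all genes tested was −0.95. Asns (−1.33), Psat1 (−1.59) and Shmt2 (−1.47) lay below this median by less than Phgdh (−2.03). In the other thinned comparisons of these classes with tumor-like cells, that median was from −0.22 to 0.022. Chac1 and Trib3 had 0 UMIs in the 86 neutrophil-like cells of the dual library, where 3 UMIs would be 34.9 CPM and the exact interval ends at 42.9 CPM, both above the tumor-like levels, so no difference was detectable at this depth. Over all UMIs Trib3 was at 18.8 CPM [9–34.5] in these cells, against 15.5 in tumor-like cells.

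Slc7a11 and Ddit3 were the 2 genes over 1.5-fold higher in neutrophil-like than tumor-like cells, in both libraries. Slc7a11 was at 10.7 CPM [8.84–12.8] in tumor-like cells of the dual library and 267 [170–401] in neutrophil-like cells, a 25.1-fold difference (log2 4.65 [3.94, 5.30]). In Combo it was at 11.7 CPM in tumor-like and 528 [486–573] in neutrophil-like cells, 45.3-fold (log2 5.50 [4.99, 6.05]). Genes over 1.5-fold higher in neutrophil-like cells made up 31.2% (dual library) and 20.0% (Combo) of those tested. Macrophage-like cells held 29.8 CPM [17–48.4] and 24.3 [11.7–44.7], and CAF-like cells 1 UMI and 0 UMIs. The neutrophil-like interval lay above those of tumor-like, macrophage-like and CAF-like cells in both libraries, and its log2 ratio over tumor-like cells was 3.77 to 5.47 and 5.01 to 5.82 over 9 alternatives.

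At 500 UMIs, which kept all 661 and 1210 neutrophil-like cells, Slc7a11 was at 321 CPM [263–388] and 507 [452–567], and 13.8% and 20.8% of the cells had a UMI. Neutrophil-like cells with and without a UMI of Ccl3 or Ccl4, chemokines of activated neutrophils, were at 315 [247–397] and 333 [231–466] in the dual library. In Combo they were at 522 [448–605] and 489 [409–580], so the intervals with and without these chemokines overlapped. This split was chosen after values were seen. Per 1000 UMIs of S100a8 and S100a9, neutrophil-like cells had 4.13 and 5.91 UMIs of Slc7a11 and tumor-like cells 53.4 and 43.7. The part of free RNA in the tumor-like level was not tested further.

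Slc3a2, which encodes the partner chain of Slc7a11 in the xCT exchanger, was also higher in neutrophil-like than tumor-like cells, at 291 against 174 CPM and 343 against 173 CPM. It was 1 of 8 other ATF4 target genes over 1.5-fold higher of 21 tested in the dual library, where 7 were lower, and of 4 of 18 in Combo, where 11 were lower. The shares higher among all genes, 31.2% and 20.0%, were near these, so the counts were not particular to the list. The other 3 in Combo were Atf3 (12.9-fold), a stress transcription factor, Ppp1r15a (10.8-fold), which directs dephosphorylation of eIF2, and Sesn2 (5.70-fold), an inhibitor of mTORC1. In the same comparison, 6 and 8 of 10 immediate early genes were over 1.5-fold higher, beside the same shares of all genes.

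Ddit3 was at 57.1 CPM [52.8–61.7] in tumor-like and 174 [97.6–288] in neutrophil-like cells of the dual library, and at 65.1 and 233 [205–263] in those of Combo. This was 3.05-fold (log2 1.61 [0.76, 2.34]) and 3.58-fold (1.84 [1.56, 2.12]). At 2000 UMIs, where 20 neutrophil-like cells were left in the dual library, its log2 ratio there was 0.39. Atf4 itself was at 259 and 198 [115–316] CPM in tumor-like and neutrophil-like cells of the dual library, and 237 and 247 [219–278] in Combo, and in both the neutrophil-like interval held the tumor-like value.

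Hspa5 was within a 1.5-fold difference of its tumor-like level in macrophage-like, neutrophil-like and CAF-like cells of both libraries. It was at 862 and 831 CPM in the tumor-like class, 953 [873–1040] and 813 [728–905] in macrophage-like cells, 663 [502–859] and 583 [539–630] in neutrophil-like cells, and 1047 [899–1214] and 1133 [844–1490] in CAF-like cells. CAF-like cells were highest in both libraries, but in Combo the CAF-like interval rested on 45 cells. Of the other ER chaperone and unfolded protein response genes, 13 of 20 and 9 of 18 tested were over 1.5-fold higher in CAF-like than tumor-like cells (29.9% and 31.2% of all genes), and 1 and 0 were lower.

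**Figure D5:**
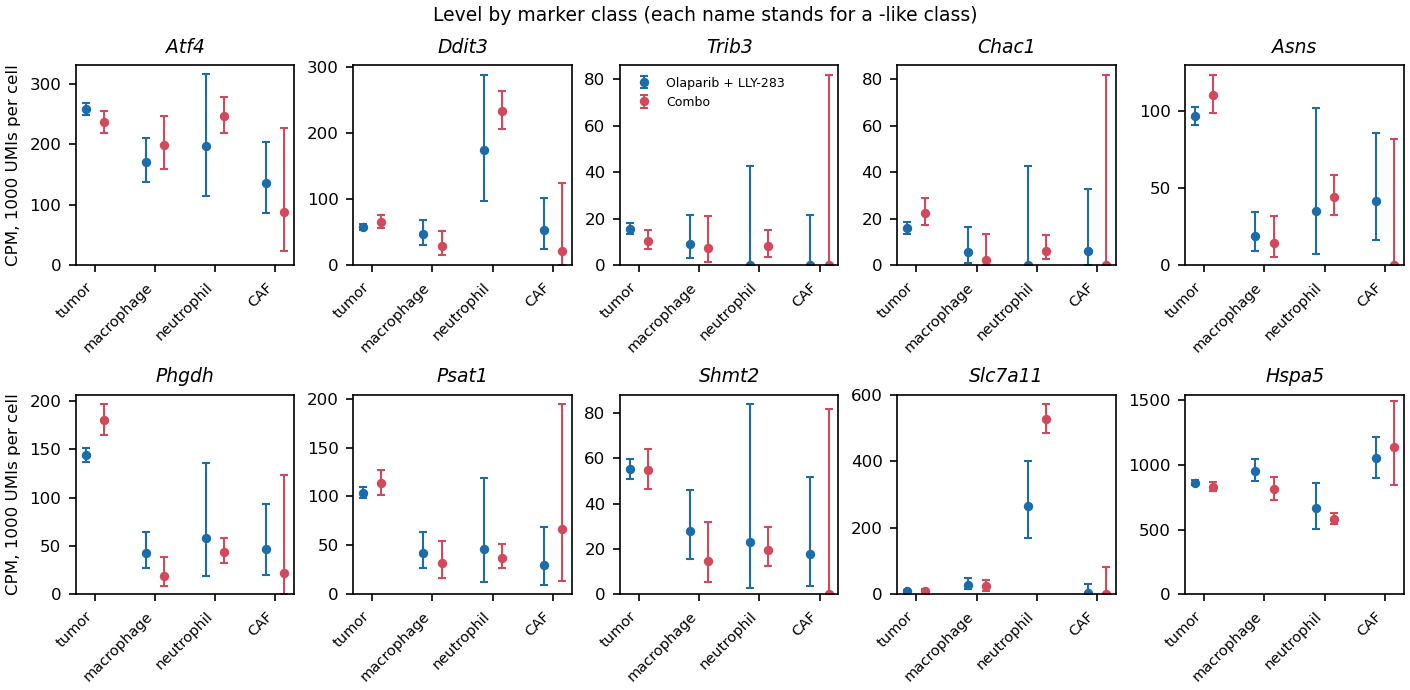
Level of each gene in CPM, with exact Poisson 95% intervals, in tumor-like, macrophage-like, neutrophil-like and CAF-like cells thinned to 1000 UMIs, for the dual (Olaparib + LLY-283) and Combo libraries. Slc7a11 reaches 267 and 528 CPM in neutrophil-like cells against 10.7 and 11.7 in tumor-like cells.

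Between the libraries, Slc7a11 in neutrophil-like cells was 1.98-fold higher in Combo at 1000 UMIs (log2 0.98 [0.38, 1.65]), where 27.4% of genes tested were over 1.5-fold higher. Only 86 cells of the dual library reached that depth. At 500 UMIs it was 1.58-fold higher (log2 0.66 [0.34, 0.99]), where 20.1% of 2341 genes were. After cells called as doublets by Scrublet were removed, 39 of the 86 cells among them, the log2 ratio at 1000 UMIs was 0.23 [−0.39, 0.94], and at 500 UMIs it was 0.56 [0.24, 0.90]. Ddit3 in neutrophil-like cells did not pass 1.5-fold at either depth, with a log2 ratio of 0.42 [−0.33, 1.27] and 0.073 [−0.36, 0.52]. Phgdh was over 1.5-fold lower in Combo at 500 UMIs, at 0.41-fold (log2 −1.30 [−2.15, −0.48]) on 31 and 23 UMIs, where 15.5% of genes were, and had a log2 ratio of −0.40 [−1.72, 1.28] at 1000 UMIs. Scrublet called 66 of these cells in the dual library and 2 in Combo at 500 UMIs, and Phgdh was not compared without them. In macrophage-like cells, 2 genes of the set were tested and 0 passed, where 7.14% of all genes were over 1.5-fold higher and 4.33% lower, and Hspa5 had a log2 ratio of −0.23 [−0.43, −0.029].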

How the data were processed

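2 single-cell libraries of EMT6 tumors were analysed, 1 per group, each of 3 mice pooled. The authors deposited counts (UMIs per gene and cell, without normalization), aligned to mm10 with Cell Ranger. The matrix headers name version 6.1.2, and the submitters' processing notes name bcl2fastq 5.0.1 and Seurat 4.1.0. The methods of the authors' paper name other versions of Cell Ranger and Seurat. All 55450 gene identifiers were found in GENCODE M21, and promoter windows are from RefSeq (GRCm38.p6). Total UMIs were 147214934 and 162522700.

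Cells were classed by the share of their UMIs from marker genes. The cuts were set after the marker shares were seen, and Fscn1 was dropped from the dendritic markers. Cells over the cuts of 2 classes (318 and 228) were set aside. Each cell was thinned without replacement to 5000, 1000, 500 or 20000 UMIs, and shallower cells were left out. Levels are CPM with exact Poisson intervals, shares have exact Clopper-Pearson intervals, and ratios exact conditional intervals. No test was run on 1 library per group, and a 1.5-fold difference was used as a rule of size among genes with at least 50 UMIs over both sides, with 0.5 UMIs added in the counts of genes past it. All 10 genes are named, and of the other lists the counts past 1.5-fold, at most 4 genes that passed, and the 5 genes of most similar pattern. Gpt2 and Ddit4, the ends of a list's range, and the 500 and 20000 UMI depths were chosen after values were seen. The members and lists were chosen with earlier results of these data known. Scrublet, as run by Scanpy 1.11.5, called 0 cells at its default and 2364 and 47 on log-transformed counts, and these calls were used as an alternative only. Scripts ran in Python 3.11.15 with matplotlib 3.10.9, pandas 2.3.3, SciPy 1.17.1 and NumPy 2.4.6. The thinning, ratios and correlations were tested on simulated data.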

Additional observations from a re-analysis of the deposited data

How the results depend on the processing

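The library ratios and the correlations moved with the depth of the cells. In cells of 5000 to 20000 UMIs the median log2 ratio of the 10 genes was −0.15 and 3 genes passed 1.5-fold, and the median pairwise correlation in Combo was 0.018. With no thinning, the median correlation was 0.079 in the library without anti-PD-1 and 0.22 in Combo, and at 20000 UMIs per cell, chosen after seeing the data, 0.10 and 0.14. The cause was not tested. Under the other alternatives (2000 UMIs, mitochondrial limits of 10% or none, Scrublet calls removed, tumor marker cut doubled or halved, cells over the cuts of 2 classes kept, another random draw) no gene passed 1.5-fold between the libraries. With another random draw, the lowest and highest log2 ratio of the 10 genes were −0.23 and 0.27, against −0.15 and 0.38 as reported. With no thinning, Trib3 was at 15.4 and 16.4 CPM in the dual library and Combo, and Shmt2 at 61.5 and 67.7. Both were thus higher in Combo, the other way than at 5000 UMIs, while Atf4 was still lower (259 and 235 CPM). Of 110 log2 ratios of single genes in tumor-like cells under 11 alternatives, 88 lay within the counting interval of the reported value and 22 outside it. Among 6 classes, osteoclast-like and T or NK-like cells included, the number of genes highest in tumor-like cells was 7 and 5, and under the alternatives 6 to 7 in the library without anti-PD-1 and 5 to 7 in Combo. For these counts too, the share of all genes was not computed. No paired analysis was possible because each group has 1 library, and leaving out a replicate is not possible for the same reason.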
